A study of Saccharomyces cerevisiae with 64 samples.

Results

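Trehalose and glycogen are the glucose stores of budding yeast, and the 10 genes described here encode enzymes and subunits that make and break them down. The set was fixed by systematic name: TPS1 (YBR126C), TPS2 (YDR074W) and TSL1 (YML100W) for trehalose synthesis, NTH1 (YDR001C) for trehalose breakdown, GSY1 (YFR015C), GSY2 (YLR258W) and GLC3 (YEL011W) for glycogen synthesis, and GPH1 (YPR160W), GDB1 (YPR184W) and SGA1 (YIL099W) for glycogen breakdown. All 10 were among the 6660 genes of the authors' table and had a value in each of its 32 columns. Polyadenylated RNA of Saccharomyces cerevisiae S288c was sequenced during sporulation, in which starved yeast enters meiosis and forms spores. There were 64 samples in 32 groups of 2 replicates. The groups were kfc1 mutants with IME1 and RIM4 overexpressed and wild type (WT) with the same constructs, at 0, 12, 24 and 48 h. kfc1 and WT with IME1 overexpressed, and kfc1 and WT with no overexpression, were sampled at 0, 2, 4, 6, 8 and 12 h. The labels write the genotype as "kfc1 --" and the constructs as PzevIME1 and PzevRIM4. They do not state the ploidy, the medium or an inducer. IME1 codes for the master activator of meiotic entry and RIM4 for an RNA-binding protein of meiosis. In the IME1 arm and the arm without overexpression all 24 WT samples were marked re-used in their titles. There genotype and re-use of samples cannot be told apart.

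In textbook biochemistry, Tps1 joins glucose 6-phosphate to UDP-glucose to give trehalose 6-phosphate, Tps2 removes the phosphate, and Tsl1 is a regulatory subunit of the same complex. Neutral trehalase, encoded by NTH1, splits trehalose into glucose. Glycogen synthase is encoded by GSY1 and GSY2 and the branching enzyme by GLC3, while GPH1 encodes glycogen phosphorylase and GDB1 the debranching enzyme. SGA1 encodes a glucoamylase specific to sporulation, and sporulating yeast is known to break glycogen down late in the process while spores keep trehalose.

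The authors' table gives 1 log2 ratio per gene and group, with the replicates combined. No replicate error, p-value or read depth can be had from it, and all values below are descriptions without a test. The ratios are to WT without overexpression at 0 h. The log base is not stated in the table and was taken as 2. In 5 columns, those of kfc1 without overexpression at 2 to 12 h, the ratios were found to be to kfc1 at 0 h instead, and they were brought to the common scale by adding that strain's 0 h value. To be counted, a gene needed a mean log2 difference of at least 1 in size (2-fold) over the later time points and the same sign throughout. At a single time point the size alone counted. A background percentage is the share of all genes that met the same rule in the same comparison. VIR1 (YGL036W, chromosome VII, 428601 to 431330), taken from the literature to be the deleted gene, was lower in kfc1 in every arm, by a mean of -10.96 with IME1 and RIM4, -8.49 with IME1 and -5.74 without overexpression at the later time points. The last mean rests on the added 0 h value of kfc1, which was -5.73 for VIR1. As deposited, those 5 columns held 1.01, 1.03, 0.58, 0.38 and -0.004 for VIR1, so they are no separate check of the deletion.

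The 10 genes split into SGA1 and the other 9. Over the 32 groups SGA1 spanned 8.26 log2 units, a wider range than that of 99.3% of the 6479 genes with a value in every group. It ran from -1.13 in WT with IME1 at 6 h to 7.12 in kfc1 with IME1 and RIM4 at 24 h. The ranges of the other 9 lay between 1.38 (NTH1) and 3.63 (TSL1), against a median of 1.84 over all genes. Their median moved little without overexpression, where it stayed between -0.24 and 0.00 in all 12 groups. With IME1 the median lay between -0.70 and -1.05 in kfc1 at 2 to 12 h and between -0.76 and -1.28 in WT. With IME1 and RIM4 it lay between -0.77 and -1.09 in kfc1 at 12 to 48 h and between -0.60 and -1.45 in WT.

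**Figure D1:**
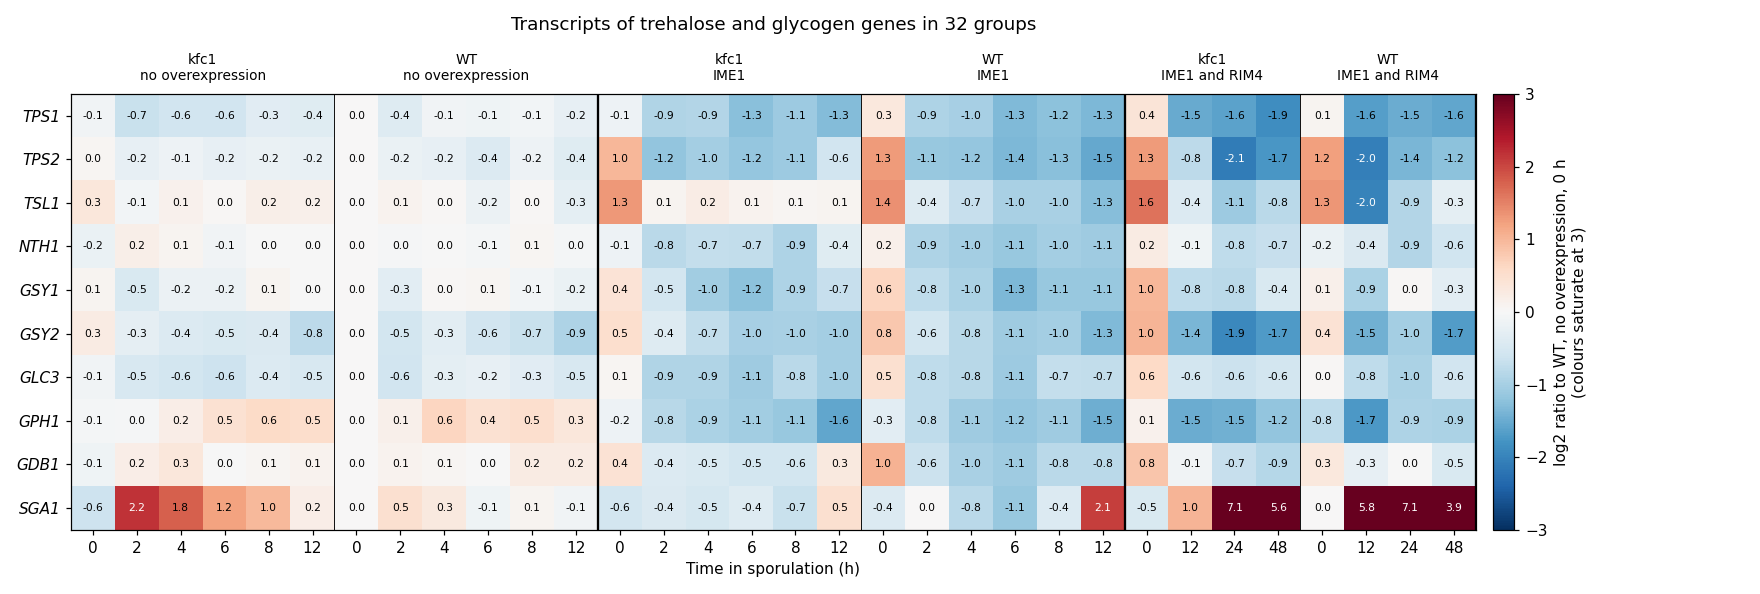
Log2 ratio to WT without overexpression at 0 h for the 10 genes (rows) in the 32 groups (columns, time in h), each cell being the authors' combined value of 2 replicates. Colours saturate at 3. SGA1 reaches 7.12 and 7.11 in the groups with IME1 and RIM4 at 24 h, while the other 9 genes are near 0 without overexpression and mostly below 0 at the later times with IME1.

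The DNA upstream of the genes is shown for 4 members because SGA1 moved apart from the rest. Positions are those of RefSeq R64 (sacCer3), where each member is a single coding exon and overlaps no other protein-coding gene. SGA1 lies on chromosome IX from 178004 to 179653 on the + strand. TSL1 lies on chromosome XIII (70624 to 73920, + strand), TPS1 on chromosome II (488905 to 490392, - strand) and GPH1 on chromosome XVI (861306 to 864014, + strand). The other members lie at chromosome IV 593893 to 596583 (TPS2, + strand) and 450220 to 452475 (NTH1, - strand), VI 174265 to 176391 (GSY1, -), XII 660716 to 662833 (GSY2, +), V 133120 to 135234 (GLC3, +) and XVI 902044 to 906654 (GDB1, +). The stretches run from base 350 to base 101 before the start codon, 5′ to 3′ on the gene's strand. Capitals mark AGGGG or its complement CCCCT, the stress response element bound by Msn2 and Msn4, and CACAAA or TTTGTG, a core of the middle sporulation element bound by Ndt80. They lie at chrIX:177654-177903, chrXIII:70274-70523, chrII:490493-490742 and chrXVI:860956-861205.
SGA1: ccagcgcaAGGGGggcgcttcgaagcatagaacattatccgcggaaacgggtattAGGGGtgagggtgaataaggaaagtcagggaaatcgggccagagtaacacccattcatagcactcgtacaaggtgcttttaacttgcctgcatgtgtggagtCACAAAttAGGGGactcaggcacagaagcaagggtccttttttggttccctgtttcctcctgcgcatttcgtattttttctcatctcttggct
TSL1: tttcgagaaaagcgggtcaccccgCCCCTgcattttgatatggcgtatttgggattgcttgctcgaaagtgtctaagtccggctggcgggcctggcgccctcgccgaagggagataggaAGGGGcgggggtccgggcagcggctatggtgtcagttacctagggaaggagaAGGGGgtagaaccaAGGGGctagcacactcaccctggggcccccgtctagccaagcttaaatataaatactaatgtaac
TPS1: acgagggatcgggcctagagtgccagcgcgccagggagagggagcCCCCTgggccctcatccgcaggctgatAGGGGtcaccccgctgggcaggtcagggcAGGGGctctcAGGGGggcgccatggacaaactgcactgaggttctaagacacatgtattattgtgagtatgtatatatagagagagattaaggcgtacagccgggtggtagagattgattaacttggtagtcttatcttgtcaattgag
GPH1: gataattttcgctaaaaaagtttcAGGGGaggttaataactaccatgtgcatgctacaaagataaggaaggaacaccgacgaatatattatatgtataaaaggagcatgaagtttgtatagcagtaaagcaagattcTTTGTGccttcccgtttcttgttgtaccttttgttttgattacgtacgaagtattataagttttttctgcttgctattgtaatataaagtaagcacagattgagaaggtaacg

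In the 500 bases before the start codon, AGGGG on either strand was present in 10 of 10 members, with 1 match in GDB1, 6 in TPS1 and 5 each in TSL1 and SGA1. Of 6000 such windows before protein-coding genes, 34.1% held it. CACAAA on either strand was present upstream of SGA1 and of GPH1 and in 29.7% of all windows. In SGA1 its first base lay at -193, with AGGGG starting at -185, counting from -1 next to the start codon. CGCAAA, another core of the Ndt80 element, was present upstream of NTH1 alone among the members and in 20.0% of all windows. GGCGGC, a core of the element bound by Ume6, was in no member window and in 9.57% of all windows. Of the TSL1 window, 174 bases lie inside the coding region of YML100W-A. A match is a description of letters only.

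SGA1 with IME1 and RIM4 had log2 ratios in kfc1 of -0.46, 1.03, 7.12 and 5.57 at 0, 12, 24 and 48 h. WT had 0.01, 5.77, 7.11 and 3.88 at the same hours. SGA1 transcripts were thus lower in kfc1 than in WT at 12 h (difference -4.75), nearly equal at 24 h (0.02) and higher at 48 h (1.69). In fold terms, the 12 h ratio to WT without overexpression at 0 h was 2.04-fold in kfc1 and 54.7-fold in WT, and the 24 h ratio 139.5-fold in kfc1 and 138-fold in WT. At 12 h alone, 11.1% of all genes were at least 2-fold lower in kfc1, and at 48 h alone 3.13% were at least 2-fold higher. Because its sign changed, SGA1 was not counted over 12 to 48 h, where 0 of 10 members were (background 2.41%), and its mean difference of -1.01 does not describe any of the 3 time points. This arm holds no re-used samples. In RNA from whole cultures, fewer cells expressing SGA1 and less SGA1 RNA per cell cannot be told apart, and this holds for all genes below.

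SGA1 with IME1 alone stayed low until 12 h in both genotypes. In kfc1 its ratios were -0.55, -0.43, -0.54, -0.40, -0.67 and 0.48 at 0, 2, 4, 6, 8 and 12 h. In WT they were -0.40, 0.00, -0.81, -1.13, -0.42 and 2.08. The last value is the highest of the arm, and SGA1 was lower in kfc1 than in WT there (difference -1.60). At 12 h SGA1 was 0.54 higher with IME1 and RIM4 than with IME1 alone in kfc1, and 3.69 higher in WT. In WT the samples with IME1 alone were re-used and those with RIM4 were not, so there RIM4 and re-use of samples cannot be told apart. In these RIM4 comparisons 0 of 10 members passed 2-fold in kfc1 (background 4.77%), and SGA1 was the 1 member that did in WT (background 8.98% higher).

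SGA1 without overexpression had a different course in kfc1 and in WT, whose samples in this arm were all re-used. kfc1 had -0.62, 2.17, 1.78, 1.20, 0.98 and 0.20 at 0, 2, 4, 6, 8 and 12 h, a course that was highest at 2 h. WT had 0.00, 0.49, 0.30, -0.12, 0.07 and -0.10. From 2 h to 12 h the difference between kfc1 and WT was 1.68, 1.48, 1.32, 0.91 and 0.29, a mean of 1.14, and SGA1 was the 1 member of 10 counted as higher (background 1.43% higher, 0.370% lower). At 2 h alone, 4.96% of all genes were at least 2-fold higher in kfc1 and 4.62% lower. At 12 h alone these shares were 0.662% and 0.292%. Over time, SGA1 was 1.88 above its own 0 h value in kfc1 (0.81 to 2.79), again alone among the members (background 6.87% higher), and 0.13 above it in WT (-0.12 to 0.49). The change was larger in kfc1 than in WT by 1.75 (0.91 to 2.30; background 3.18% higher), and the lower start in kfc1 enters it. SGA1 in kfc1 was also the member with the largest difference between arms, -1.57 with IME1 against none, but it was not counted because its sign turned at 12 h. The IME1 response of SGA1, IME1 minus none, was lower in kfc1 than in WT (difference -1.39, from -2.11 to -0.59; background 1.87% lower), and 0 of the other 9 members were counted there.

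**Figure D2:**
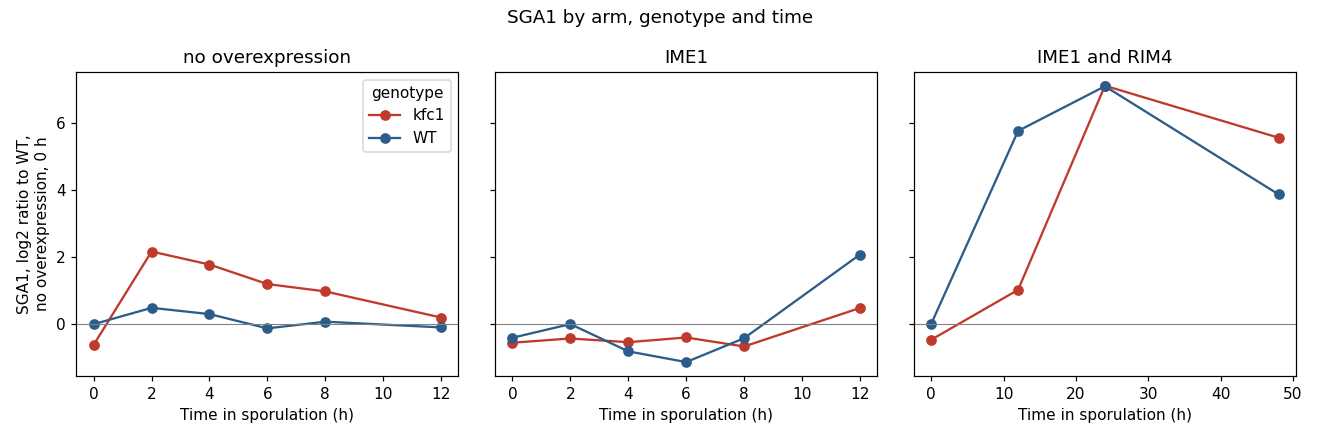
SGA1 log2 ratio to WT without overexpression at 0 h (vertical axis) against time in sporulation in h (horizontal axis, with its own scale in each panel), for kfc1 and WT in the 3 arms. Each point is the authors' combined value of 2 replicates. With IME1 and RIM4 kfc1 is at 1.03 at 12 h, against 5.77 in WT, and both are near 7.1 at 24 h.

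Without overexpression none of the other 9 genes met the rule in either genotype. Of 10 members, 0 were counted over time in WT (background 3.66%), with mean changes between -0.61 for GSY2 and 0.41 for GPH1. In kfc1 the means of the other 9 ran from -0.72 for GSY2 to 0.40 for GPH1, and GSY2 at 12 h alone was more than 2-fold below its own 0 h value (-1.05), as were 3.72% of all genes. These 2 genes moved in opposite directions: GSY2, a glycogen synthase gene, stood at -0.80 in kfc1 and -0.93 in WT at 12 h, and GPH1, the phosphorylase gene, at 0.54 in kfc1 and 0.33 in WT. Between the genotypes, differences of the 9 genes at any time from 2 to 12 h lay between -0.47 (TPS1 at 4 h) and 0.46 (TSL1 at 12 h). TPS1 was below WT in kfc1 at each of the 5 time points (mean -0.31). At 0 h, 0 of 10 members were 2-fold apart between kfc1 and WT (background 1.64%). SGA1 at -0.62 and TSL1 at 0.34 were the outermost.

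At 0 h, TPS2 and TSL1 had the highest ratios among the members in the strains carrying PzevIME1. The labels do not state whether IME1 was induced at that hour. At 0 h, "with IME1" therefore names the strain, and an effect of IME1 itself was not tested. At 0 h with IME1, TSL1 stood at 1.29 in kfc1 and 1.36 in WT, and TPS2 at 0.99 in kfc1 and 1.27 in WT. With IME1 and RIM4 at 0 h, TSL1 stood at 1.62 in kfc1 and 1.33 in WT, and TPS2 at 1.27 in kfc1 and 1.23 in WT. In kfc1 with IME1 and RIM4 the glycogen synthase genes GSY2 (1.02) and GSY1 (1.00) reached 2-fold above WT without overexpression as well. Set against 0 h without overexpression of the same genotype, 0 of 10 members were 2-fold higher with IME1 in kfc1, where TSL1 (0.95) and TPS2 (0.94) came closest (background 1.58% higher and 2.71% lower). In WT 3 of 10 were, namely TSL1 (1.36), TPS2 (1.27) and GDB1 (1.04). The WT background there was 6.02% higher and 16.7% lower, or 392 and 1087 genes, which became 626 and 902 after subtracting each column's own mean. NTH1 (0.06 in kfc1, 0.16 in WT) and GPH1 (-0.11 in kfc1, -0.31 in WT) were near their levels without overexpression. Between kfc1 and WT at 0 h with IME1, 0 of 10 members were 2-fold apart, against 12.6% of all genes (696 higher and 121 lower, or 552 and 184 with centred columns). GDB1 had the largest size, -0.60.

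After 0 h with IME1, all 9 genes other than SGA1 were below their own 0 h value at each time point in both genotypes, 45 of 45 values in kfc1 and 45 of 45 in WT. The time points of a gene share that 0 h value, so these are not 45 separate observations. Of all genes in kfc1, 3105 of 6499 had a mean change below 0. Against WT without overexpression at 0 h, 39 of 45 values were below 0 in kfc1 and 45 of 45 in WT. On that scale the median of all genes lay between -0.03 and -0.01 at each of these hours in both genotypes. By the rule 4 of 10 members fell in kfc1: TPS2 by 1.99, GSY2 by 1.33, GSY1 by 1.29 and TSL1 by 1.18. TPS1, GLC3 and GPH1 lay close to the threshold there (GLC3 at -0.99, GPH1 at -0.95), and 7 members were counted with centred columns. The kfc1 background was 4.99% lower and 9.69% higher (324 and 630 genes, or 444 and 533 with centred columns). In WT 8 of 10 fell, led by TPS2 (-2.56), TSL1 (-2.22) and GDB1 (-1.89), with GPH1 (-0.79) and SGA1 (0.35) as the exceptions. The WT background was 12.6% lower (819 genes lower and 1560 higher, or 1215 and 1296 with centred columns). Part of these changes is the 0 h value itself: measured from 0 h without overexpression of the same genotype, 3 members were counted in kfc1 (TPS2, GSY2 and GPH1) and 5 in WT (TPS1, TPS2, NTH1, GSY1 and GPH1). With that start 371 of 6500 genes were lower in kfc1 and 370 of 6500 in WT. The change of TSL1 and GDB1 was larger in WT, so that kfc1 minus WT was 1.04 for TSL1 and 1.13 for GDB1, 2 of 10 counted (background 4.14% higher and 12.3% lower, 269 and 800 genes, or 368 and 656 with centred columns). With 0 h without overexpression as the start, and also without the 12 h groups, 0 of 10 were counted in that comparison.

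**Figure D3:**
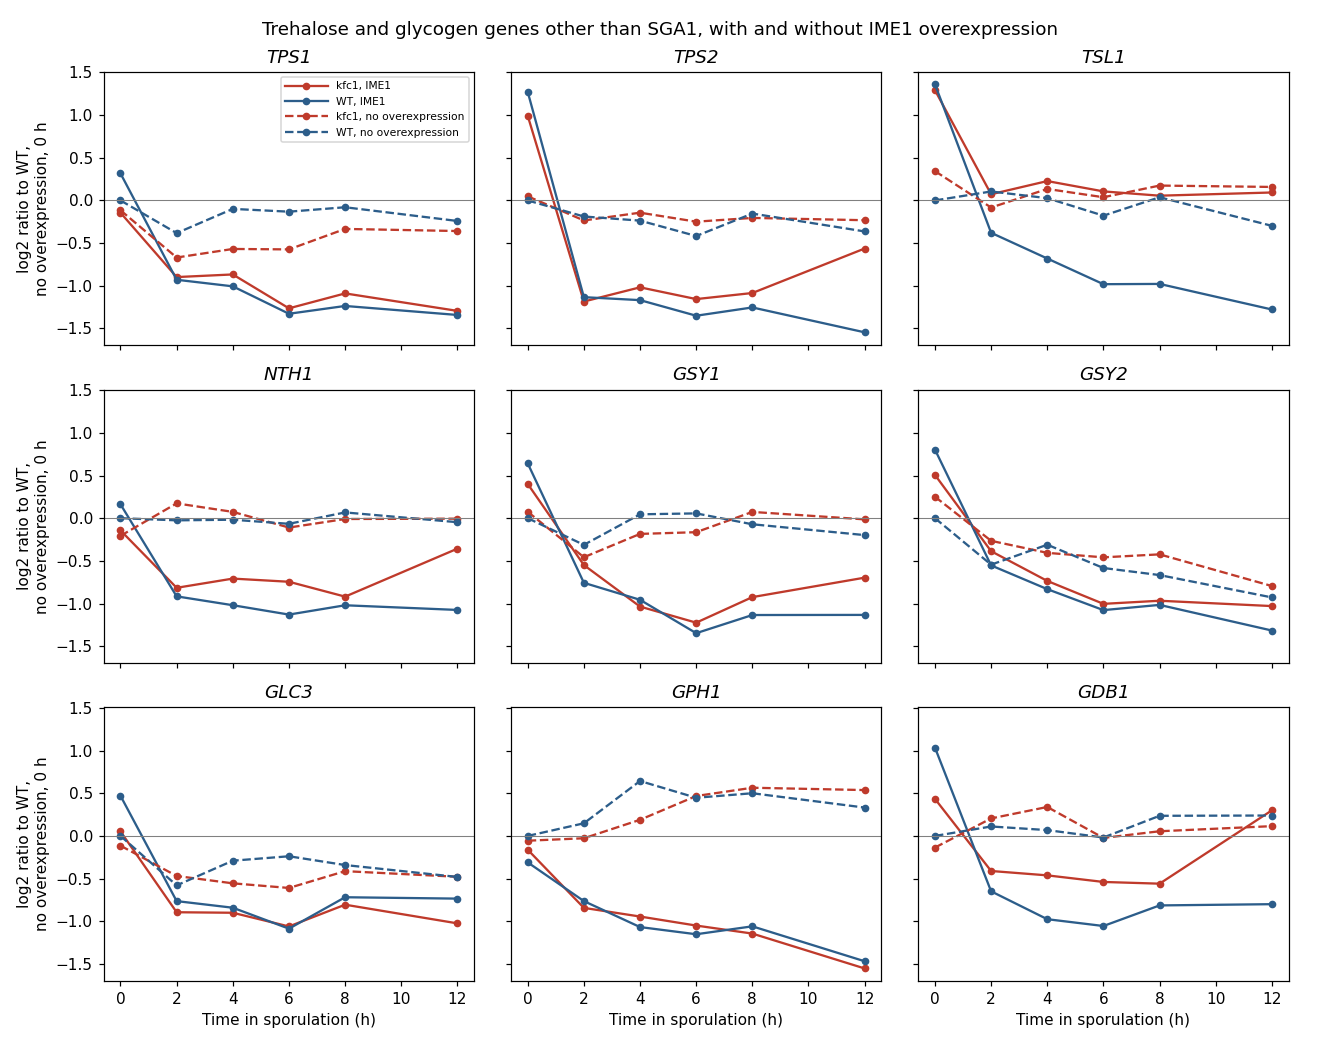
Log2 ratio to WT without overexpression at 0 h (vertical axis) against time in sporulation in h (horizontal axis) for the 9 genes other than SGA1. Solid lines are the IME1 arm, dashed lines no overexpression, red kfc1 and blue WT, and each point is the authors' combined value of 2 replicates. TSL1 with IME1 stays between 0.06 and 0.23 in kfc1 from 2 h on, while it declines to -1.28 in WT.

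Set against the same hours without overexpression, the phosphorylase gene GPH1 was the member with the clearest difference with IME1. Its difference, IME1 minus none, was -0.82, -1.13, -1.52, -1.71 and -2.09 at 2, 4, 6, 8 and 12 h in kfc1 (mean -1.45). In WT it was -0.91, -1.71, -1.60, -1.56 and -1.80 (mean -1.52). GPH1 was the 1 member counted in kfc1 (background 2.84% lower). In WT 3 of 10 were counted: GPH1, TPS2 (-1.02) and NTH1 (-1.01; background 3.97% lower). GDB1 (-0.99), TPS1 (-0.98) and GSY1 (-0.97) lay just short of the threshold in WT, so that the count was 6 without the 2 h groups or with centred columns and 1 without the 8 h groups. The table also lists YPR160C-A, an identifier that by its systematic name neighbours GPH1 on the other strand. Its ratios followed those of GPH1 (r = 0.99 over 31 groups). Whether reads were counted by strand is not given in the sources used here, so the 2 cannot be told apart.

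Between kfc1 and WT with IME1, TSL1 had the largest mean difference among the members. TSL1 ratios in kfc1 were 0.07, 0.23, 0.11, 0.06 and 0.09 at 2, 4, 6, 8 and 12 h. In WT they were -0.38, -0.68, -0.98, -0.98 and -1.28. kfc1 was higher at all 5 time points, with a mean difference of 0.97, just under the threshold. Hence 0 of 10 members were counted at 2 to 12 h (background 0.708%) and 0 of 10 at 2 to 8 h (background 0.477%). Without the 2 h groups TSL1 was counted in both. At 12 h alone TSL1 (1.37) and GDB1 (1.10) were at least 2-fold higher in kfc1 and SGA1 was lower (background 4.29% higher, 4.61% lower). TPS2 at 0.98 was just below 2-fold at 12 h, with -0.56 in kfc1 and -1.55 in WT. GDB1 stood at 0.30 in kfc1 and -0.80 in WT at 12 h. GLC3, which encodes the branching enzyme, and GPH1 were close between the genotypes, with mean differences of -0.11 and 0.00.

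With IME1 and RIM4, TPS1, TPS2, TSL1 and GSY2 were lower and SGA1 higher at 12 to 48 h than at 0 h in both genotypes. In kfc1, 8 of 10 members fell and SGA1 rose by 5.04. The largest declines were those of TPS2 (-2.81), GSY2 (-2.69), TSL1 (-2.39) and TPS1 (-2.04), and NTH1 (-0.77) did not reach the rule. The kfc1 background was 13.2% lower and 20.4% higher (861 and 1328 genes, or 1217 and 1088 with centred columns). In WT, 4 of 10 fell, TPS2 (-2.78), TSL1 (-2.39), GSY2 (-1.81) and TPS1 (-1.64), and SGA1 rose by 5.58. The WT background was 11.4% lower and 15.5% higher (743 and 1009 genes, or 980 and 850 with centred columns). In WT the glycogen genes GSY1 (-0.56), GPH1 (-0.44), GDB1 (-0.55) and GLC3 (-0.79) did not reach the rule. In kfc1 the same 4 changed by -1.68, -1.50, -1.39 and -1.19.

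The genotypes had unlike starts in that arm. At 0 h with IME1 and RIM4 all 9 genes other than SGA1 were higher in kfc1 than in WT, by 0.04 (TPS2) to 0.89 (GPH1), with 0 of 10 members past 2-fold (background 2.74%). By sign alone, 3181 of 6505 genes were higher in kfc1 there and 3324 lower. GPH1 stood at 0.13 in kfc1 and -0.76 in WT, and GSY1 at 1.00 in kfc1 and 0.15 in WT. The change from 0 h was lower in kfc1 by the rule for GSY1 (-1.12) and GPH1 (-1.06), 2 of 10 members (background 0.738% lower). Without the 24 h groups neither was counted. Without the 12 h groups 4 were lower (GSY1, GPH1, GSY2 and GDB1) and SGA1 was higher. The differences in level after 0 h were smaller: kfc1 minus WT averaged -0.26 for GSY1 and -0.17 for GPH1 at 12 to 48 h.

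**Figure D4:**
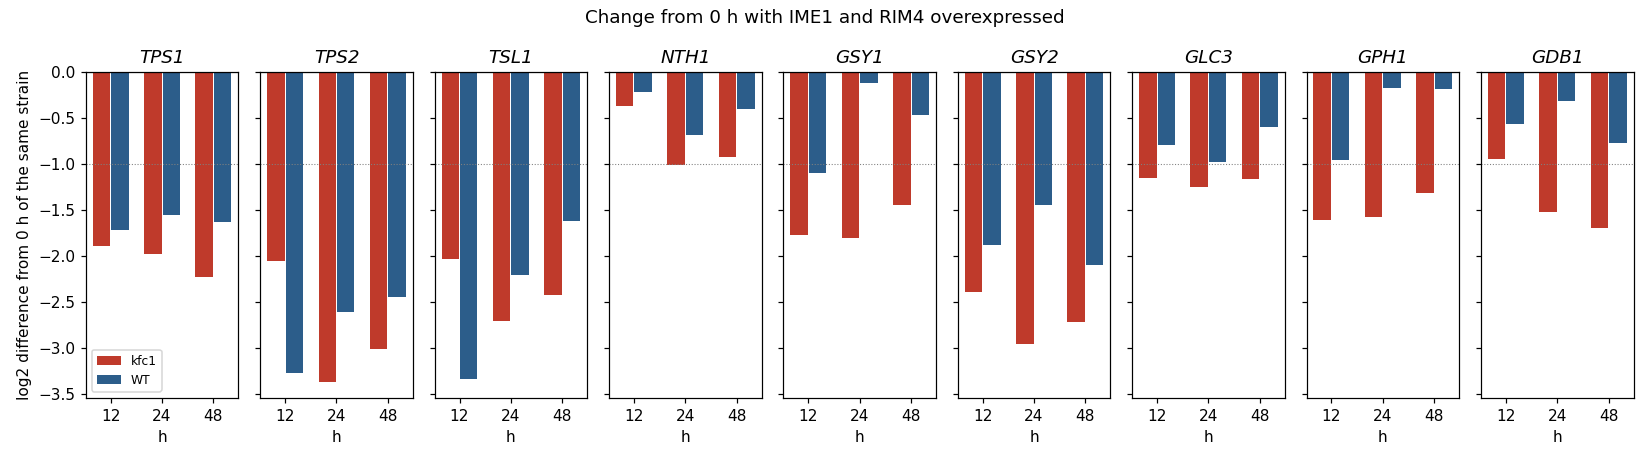
Log2 difference from 0 h of the same strain (vertical axis) at 12, 24 and 48 h (horizontal axis) with IME1 and RIM4 overexpressed, for the 9 genes other than SGA1. Red bars are kfc1 and blue bars WT, each from the authors' combined values of 2 replicates, and the dotted line marks 2-fold lower. All 27 bars of each genotype are below 0, and 24 of 27 in kfc1 and 13 of 27 in WT pass the line, which 13.9% to 14.8% of all genes passed in kfc1 at the 3 times and 10.9% to 16.1% in WT. The 3 bars of a gene in 1 genotype share its 0 h value. In kfc1, 3228 of 6505 genes had a mean change below 0.

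Within that arm, the time of the lowest value differed between the genotypes for some genes, TPS2 and TSL1 among them. TPS2 stood at -0.78, -2.10 and -1.74 in kfc1 at 12, 24 and 48 h, and at -2.04, -1.38 and -1.22 in WT. TSL1 stood at -0.41, -1.09 and -0.80 in kfc1 and at -2.01, -0.88 and -0.29 in WT. Both were therefore lowest at 24 h in kfc1 and at 12 h in WT. So was GSY1, a glycogen synthase gene. It stood at -0.77, -0.80 and -0.45 in kfc1 and at -0.95, 0.03 and -0.33 in WT. At 12 h alone TSL1 and TPS2 were the 2 members at least 2-fold higher in kfc1, by 1.59 and 1.26 (background 8.06% higher). By sign alone, all 9 genes other than SGA1 were higher in kfc1 at 12 h, against 3156 of 6515 of all genes. At 24 h both differences were below 0, -0.21 for TSL1 and -0.72 for TPS2. They were among 7 of the 9 genes lower in kfc1 at that hour (median of the 9 -0.52, lowest -0.91). Of all genes, 3077 of 6528 were lower. TPS1, the gene of the synthase itself, was not lowest at 24 h in kfc1. It stood at -1.52, -1.61 and -1.86 in kfc1 at 12, 24 and 48 h and at -1.64, -1.49 and -1.56 in WT.

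**Figure D5:**
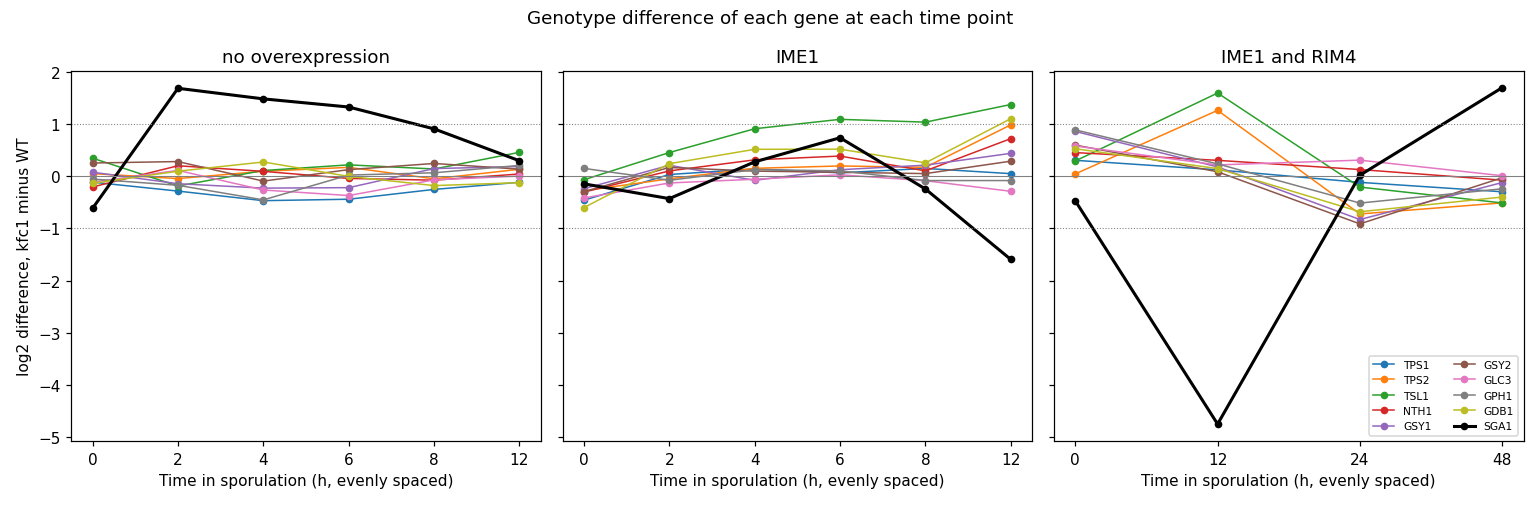
Log2 difference kfc1 minus WT (vertical axis) at each time point (horizontal axis, h, evenly spaced) for the 10 genes in the 3 arms, from the authors' combined values of 2 replicates. Dotted lines mark 2-fold. SGA1 (black) is furthest outside the band of the other genes without overexpression at 2 to 8 h (0.91 to 1.68), with IME1 at 12 h (-1.60) and with IME1 and RIM4 at 12 h (-4.75) and 48 h (1.69), and TSL1 is the highest with IME1 at 2 to 12 h. SGA1 is also below that band at 0 h without overexpression (-0.62) and with IME1 and RIM4 (-0.47). With IME1 it is below the band at 2 h (-0.43) and 8 h (-0.25) too.

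Genes for the same kind of enzyme, or for steps next to each other, were also set side by side. The glycogen synthase genes GSY1 and GSY2 diverged most with IME1 and RIM4, where the log2 ratio of GSY2 minus that of GSY1 was -0.60, -1.14 and -1.25 in kfc1 at 12, 24 and 48 h. In WT it was -0.50, -1.05 and -1.35. Without overexpression it was -0.78 in kfc1 and -0.73 in WT at 12 h. They are paralogs, and how reads shared between them were counted is not given in the sources used here. Debranching enzyme gene GDB1 minus GPH1 was 0.71, 1.37, 0.76 and 0.32 in kfc1 with IME1 and RIM4 at 0, 12, 24 and 48 h, and 1.07, 1.46, 0.93 and 0.48 in WT. With IME1 alone it was 0.60 in kfc1 and 1.35 in WT at 0 h, and 1.85 in kfc1 and 0.67 in WT at 12 h. These are differences between ratios, not between levels. For the trehalase genes with IME1 at 12 h, NTH1 stood at -0.36 in kfc1 and -1.08 in WT, and its paralog NTH2 at 1.18 in kfc1 and 0.51 in WT.

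A list of 39 further genes of the pathway was described, made up of trehalose enzymes, hexose kinases and other precursor enzymes, glycogen initiators, phosphatase subunits and regulators. By the same rule 0 of the 39 differed between kfc1 and WT at 2 to 12 h without overexpression, and 0 of 39 at 12 to 48 h with IME1 and RIM4. The shares of all genes there were 1.80% and 2.41%, under 1 gene in 39, so a count of 0 says nothing particular to the list. With IME1 at 12 h, 1 of 39 was higher in kfc1, RIM15 (1.96), a kinase gene of the nutrient response. Also 1 of 39 was lower, HXK2 (-1.48), a hexokinase gene. Of all genes 4.29% were higher and 4.61% lower, each over 1 gene in 39, so these counts say nothing particular to the list. Over time with IME1, 3 rose and 4 fell in kfc1, and 3 rose and 17 fell in WT, where ATH1, the acid trehalase gene, fell most (-2.29). Of all 6500 genes, 9.69% rose and 4.99% fell in kfc1, and 1560 rose and 819 (12.6%) fell in WT. The 0 h values with IME1 enter these counts. With 0 h without overexpression as the start, 371 of all genes fell in kfc1 and 370 in WT. The 39 genes were not recounted with that start, so the counts of 4 and 17 are no contrast of genotypes alone. Over time with IME1 and RIM4, 7 rose and 10 fell in kfc1, and 5 rose and 5 fell in WT, against 20.4% and 13.2% of all genes in kfc1 and 15.5% and 11.4% in WT. PIG2, which encodes a subunit that directs protein phosphatase 1 to glycogen synthase, rose by 2.97 in kfc1 and 2.86 in WT. The glucokinase gene GLK1 fell by 3.42 in kfc1 (-3.42) and by 2.38 in WT (-2.38). TPS3, the other regulatory subunit gene of the trehalose synthase complex, changed by -1.33 in kfc1 and -1.33 in WT. GLG2, a glycogen initiator gene, rose by 1.46 in kfc1 and 1.07 in WT. TPS3 and GLG2 here and NTH2 above were singled out after their values had been seen.

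Likeness of pattern was measured by Pearson's r over the 31 groups other than WT without overexpression at 0 h, which share that reference, among 6479 genes. SGA1 was most like YEL023C (0.98), YOR366W (0.97) and YOL024W (0.97), and its r with each of the other 9 members was below 0, from -0.58 with TPS1 to -0.08 with GSY1. TPS2 was most like FIP1 (0.96), ABZ1 (0.95) and YKL091C (0.95), TPS1 most like ROM1 (0.97), and TSL1 most like OSH3 (0.92), SIC1 (0.92) and TPS2 (0.91). Among the members TPS2 and TSL1 were the most alike. NTH1 was most like SDS22 (0.94), with ATH1 in the third place (0.91). GSY1 and GLC3 shared PEP1 among their 3 nearest genes (0.94 and 0.92), GSY2 was nearest to EIS1 (0.93), and GDB1 to SAP155 (0.93).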

How the data were processed

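Polyadenylated RNA was extracted with a column kit and sequenced by a service company, per the labels' protocols. Per the submitters' processing notes the tools were BWA and DESeq2 and the build sacCer3, with no role or version stated. How reads were counted, on which annotation, and whether ratios were shrunk is not stated. The deposited table holds log2 ratios made by the authors, 1 column per group of 2 replicates, for 6660 genes, and 4 lines were empty. Depth per sample is unknown.

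Genes without a value showed what each column is relative to (zero values left out). Of genes blank in a WT column without overexpression at 2 to 12 h, 0 of 401 values were negative in the other arms and 31 of 102 in the 5 kfc1 columns at 2 to 12 h. Of genes blank in those 5 columns, 0 of 84 values were negative in the 5 columns themselves, against 17 of 17 at 0 h in kfc1. The kfc1 value at 0 h was therefore added to them.

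The plan allowed for values per replicate and a linear model. The table has none, so no test was run, and a mean difference of at least 1 with the same sign at each time point was counted, in 24 comparisons. The members and lists were chosen with earlier results of these data known. The text names all 10 members, up to 4 genes of the related list per comparison, and up to 3 genes most like each member. Positions and sequences came from RefSeq R64, in which 5986 of the identifiers were found. The alternatives were centred columns, RefSeq genes only, dropping the 139 genes that share an exact value with another gene (a sign of few reads), size of the mean alone, a 1.5-fold threshold, dropping each time point, no shift of the 5 kfc1 columns, and another start for the IME1 arm. Python 3.11.15 with pandas 2.3.3 was used.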

Additional observations from a re-analysis of the deposited data

Results flagged for a closer look

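TPS1, the trehalose-6-phosphate synthase gene, differed between kfc1 and WT in opposite directions in 2 arms. At 2 to 12 h with IME1, kfc1 was above WT at each of the 5 time points, with a mean of 0.09 (0.03 to 0.15), and without overexpression it was below WT at each, with a mean of -0.31 (-0.47 to -0.12). The means differ by 0.40 log2 units. The difference between the arms was not tested, both means are under 2-fold, and no replicate error exists to set beside them.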

How the results depend on the processing

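No paired analysis was possible because the table holds 1 combined value per group and none per replicate, so leaving out a replicate was not possible either. Of the 395 recomputed differences of members counted as higher or lower, 0 changed sign, but 13 with the other start, 19 with centred columns and 3 with the kfc1 columns as deposited moved by more than their SD over time points (any move, at a single time point). The counts of members moved in 32 of 191 recomputations, and those over all genes in 36 of 191, 24 of them with the 1.5-fold threshold. That threshold by construction moved the members' count for kfc1 minus WT to 1 without overexpression at 0 h, to 1 at 0 h, 1 at 2 to 8 h, 5 at 12 h and 1 at 2 to 12 h with IME1. At 0 h with IME1 and RIM4 it gave 3. It moved the count over time to 2 in kfc1 and 1 in WT without overexpression and to 8 in kfc1 with IME1. It moved IME1 minus none to 2 at 0 h and 4 at 2 to 12 h in kfc1 and to 5 and 7 in WT, RIM4 added in WT to 3, the difference in change with IME1 and RIM4 to 4 and the difference in IME1 response to 2. Centring gave 7 over time in kfc1 with IME1 and 6 for IME1 minus none in WT. Without the same-sign rule 1 member was counted for kfc1 minus WT with IME1 and RIM4 at 12 to 48 h, and 2 for IME1 minus none in kfc1. The kfc1 columns as deposited also gave 2 there and 2 for the difference in IME1 response. Leaving out 2 h gave 1 for kfc1 minus WT with IME1, at 2 to 8 h and at 2 to 12 h (TSL1), and 6 for IME1 minus none in WT, where leaving out 8 h gave 1. Leaving out 12 h gave 2 for IME1 minus none in kfc1, 0 for the difference in change with IME1, and 5 for that with IME1 and RIM4 (4 lower and SGA1 higher), which leaving out 24 h took to 0. With 0 h without overexpression as the start, 5 members were counted over time in WT with IME1 and 0 for the difference in change. RefSeq genes only and leaving out genes with few reads changed no count of members. Where no construction of the alternative shows it, the cause was not tested.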
